A study of Mus musculus with 4 samples.

Results

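Cholesterol synthesis and its control were followed in stromal cells sorted from mouse pancreatic tumours. The set chosen held 8 genes, of which 7 are described and 1 is not reported here. The rows were found by symbol, without regard to case (hmgcs1, idi1, fdft1, sqle, cyp51, srebf2 and insig1), and are written here as mouse symbols: Hmgcs1, Idi1, Fdft1, Sqle and Cyp51 for synthesis, and Srebf2 and Insig1 for control, out of 22609 genes in the deposited count table. Of these 7, 6 had counts above 0 and passed the filter on low counts, and Hmgcs1 was listed at a count of 0 in every library. The cells came from a spontaneous pancreatic ductal adenocarcinoma model on the C57BL/6 background, and all were sorted for FAP, a membrane protease that marks activated fibroblasts. They were divided by CD34, a surface sialomucin of vascular, blood progenitor and some stromal cells, into FAP+ CD34+ and FAP+ CD34- cells, with 2 libraries of each. The sample titles call the libraries of each fraction biological replicates 1 and 2. The sources used here do not name the alleles that drive the tumours, the age of the mice or the number of animals behind a library, so a p-value measures only the spread between these libraries. Library totals were 10322354 to 14633561 counts.

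Mammalian cells make cholesterol from acetyl-CoA through the mevalonate pathway and squalene, and also take it up from lipoproteins. Synthesis and uptake are under the transcription factor SREBP-2, encoded by Srebf2, which is made as a membrane protein of the endoplasmic reticulum. When sterols are plentiful, INSIG proteins hold SREBP-2 and its escort SCAP there. When sterols run low, the factor is carried to the Golgi, cut free and enters the nucleus, where it activates the genes of synthesis and uptake, as well as Srebf2 and Insig1 themselves.

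The promoters of the members are shown because this factor acts through them. The RefSeq promoter table held 5 of the 7 members, and the 250 bases before each annotated start on GRCm38.p6 are printed in the sense of the gene. They lie at chr13:119690101-119690350 on the + strand for Hmgcs1, chr13:8885356-8885605 on the + strand for Idi1, chr5:4104698-4104947 on the - strand for Cyp51, chr5:28071162-28071411 on the + strand for Insig1 and chr15:82147019-82147268 on the + strand for Srebf2. Capitals mark matches to a sterol regulatory element, searched as TCACNCCAC or its reverse complement GTGGNGTGA, and to the CCAAT box, searched as CCAAT or ATTGG.
Hmgcs1: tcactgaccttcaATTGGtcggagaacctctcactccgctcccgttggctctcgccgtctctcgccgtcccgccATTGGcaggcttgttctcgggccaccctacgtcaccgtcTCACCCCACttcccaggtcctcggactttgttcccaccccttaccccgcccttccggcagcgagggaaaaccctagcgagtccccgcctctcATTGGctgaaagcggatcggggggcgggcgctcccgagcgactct
Idi1: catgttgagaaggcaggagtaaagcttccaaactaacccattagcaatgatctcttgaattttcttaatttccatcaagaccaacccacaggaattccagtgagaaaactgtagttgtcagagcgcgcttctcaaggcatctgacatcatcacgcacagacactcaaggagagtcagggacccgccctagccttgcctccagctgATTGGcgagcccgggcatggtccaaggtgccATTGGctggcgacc
Cyp51: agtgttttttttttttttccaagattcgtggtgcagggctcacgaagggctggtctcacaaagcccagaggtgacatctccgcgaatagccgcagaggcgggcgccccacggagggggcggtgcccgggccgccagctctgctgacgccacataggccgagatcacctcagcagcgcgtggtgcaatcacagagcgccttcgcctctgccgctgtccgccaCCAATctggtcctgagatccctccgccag
Insig1: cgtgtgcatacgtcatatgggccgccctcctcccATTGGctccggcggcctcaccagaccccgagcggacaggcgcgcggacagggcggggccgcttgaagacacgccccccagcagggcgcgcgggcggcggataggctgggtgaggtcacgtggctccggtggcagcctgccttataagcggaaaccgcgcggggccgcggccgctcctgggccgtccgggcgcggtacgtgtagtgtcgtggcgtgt
Srebf2: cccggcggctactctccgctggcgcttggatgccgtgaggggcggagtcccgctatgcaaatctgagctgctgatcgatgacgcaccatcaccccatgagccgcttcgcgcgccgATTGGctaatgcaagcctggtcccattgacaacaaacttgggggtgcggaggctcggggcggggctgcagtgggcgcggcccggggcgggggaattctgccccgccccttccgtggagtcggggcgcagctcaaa
A match to the sterol element was found in Hmgcs1 alone of these 5, as TCACCCCAC from 137 to 129 bases before the start; 1.05% of all 32851 windows of this length in the table held one. A CCAAT box was found in all 5 windows, with 3 in Hmgcs1, 2 in Idi1 and 1 in each of the others, against 33.8% of all windows with at least 1. The 2 motifs did not overlap in these windows. The GC box, searched as GGGCGG or CCGCCC, was found in all 5 windows, against 32.7% of all windows, and is not marked. Only exact matches were counted, so a site that differs by 1 letter was not found. A match describes letters only, and the files hold no measure of binding.

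Values below are CPM, the counts of a gene scaled to a fixed library total, read as levels of 1 gene across libraries, with replicate 1 given before replicate 2 and CD34+ before CD34-. Fold changes are on the log2 scale, CD34+ over CD34-, from edgeR's quasi-likelihood test, with p adjusted by Benjamini-Hochberg over all 13875 tested genes and called under 0.05. In bulk samples, fewer cells of a type and less RNA per cell cannot be told apart. Of the 6 tested members, 0 were called in either direction (edgeR), and 0 had an unadjusted p under 0.05. The test called 0% of all tested genes higher and 0% lower, with 9.81% higher and 6.65% lower at an unadjusted p under 0.05. Cd34 itself, whose protein divided the fractions, stayed uncalled by edgeR despite a difference of 3.37 on that scale (adjusted p = 0.141). Fap stayed uncalled too, at -1.2 (adjusted p = 0.23, edgeR). Missing this threshold therefore does not show that a member was equal in both fractions. DESeq2 also called 0 of the 6 members, against 2.85% of all genes called higher and 1.3% lower, and had 0 members at an unadjusted p under 0.05, against 9.86% of genes higher and 5.67% lower. All 6 had a negative fold change, with a median of -0.23, beside 51.3% negative and a median of -0.02 over all tested genes. These counts do not cover the gene that is not reported, so they do not give the direction of the whole set.

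**Figure D1:**
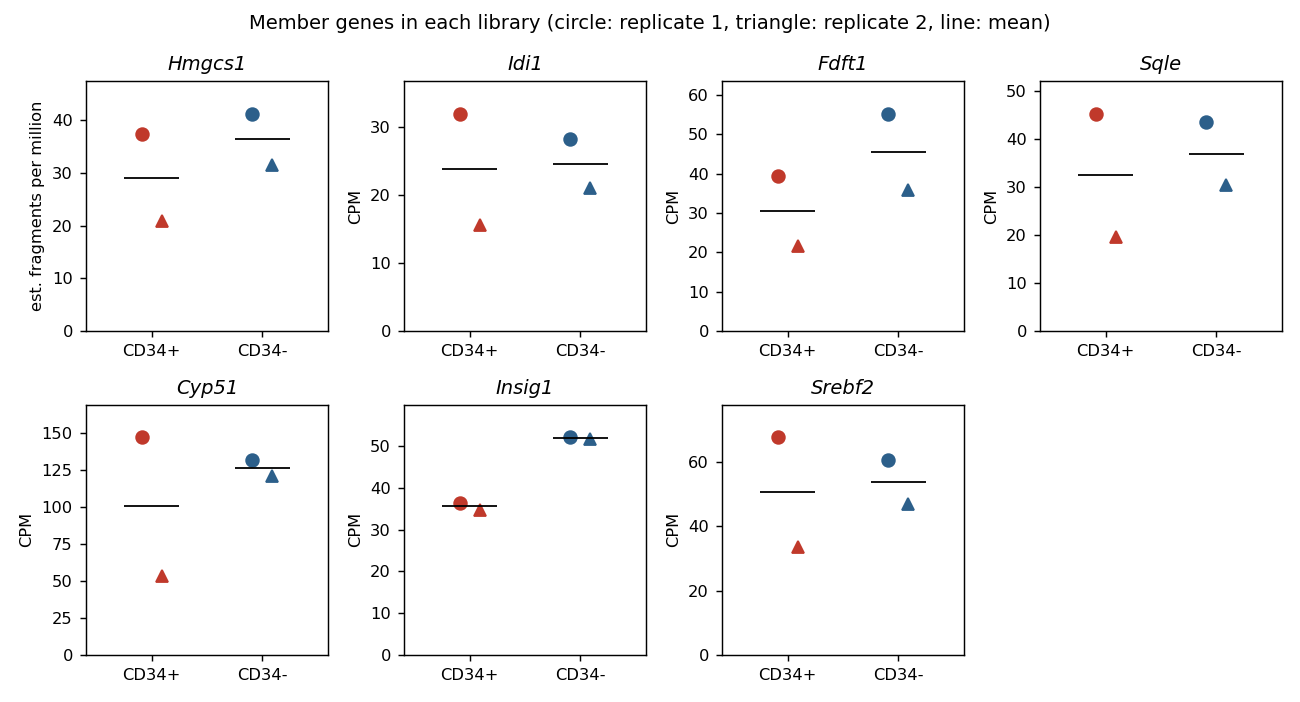
Level of each member in each library, in CPM from the count table, or, for Hmgcs1, in estimated fragments scaled to the library total in the same way (FPM), with circles for replicate 1, triangles for replicate 2 and lines for the mean of 2 libraries. CD34+ replicate 2 is the lowest library in all 7 panels, and in the Insig1 panel the replicates of each fraction nearly coincide, at 36.4 and 34.7 CPM against 52.1 and 51.8 CPM.

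Among the enzymes, Hmgcs1 encodes the cytosolic HMG-CoA synthase, an early enzyme of the mevalonate pathway. Its count and RPKM were 0 in all 4 libraries, while the authors' other quantification gave it 443 and 326 estimated fragments in the CD34+ pair, replicate 1 first, and 622 and 515 in the CD34- pair. Scaled to the library total (FPM) these were 37.3 and 20.8 against 41.2 and 31.5 FPM, and the groups overlapped. Tested with edgeR, the estimated fragments differed by -0.25 on the log2 scale (standard error, SE, 0.36; adjusted p = 0.774). The 2 quantifications thus differed for this gene, and the cause was not tested. Estimated fragments gave 0 called members of 7 and 0 at an unadjusted p under 0.05, against 8.71% of tested genes higher and 5.75% lower at that p.

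Idi1 encodes the isomerase that supplies both building blocks of the isoprenoid chain. Its level was 32 and 15.6 CPM in CD34+ against 28.2 and 21.1 in CD34- cells. Both CD34- libraries lay between the CD34+ ones, and the log2 fold change was -0.02 (SE 0.39, adjusted p = 0.983, edgeR).

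Fdft1 encodes squalene synthase, the first enzyme committed to sterols. It was at 39.4 and 21.5 CPM in CD34+ against 55.2 and 35.9 in CD34- cells. CD34- replicate 1 was the high library and CD34+ replicate 2 the low one, with CD34+ replicate 1 above CD34- replicate 2. The log2 fold change of -0.54 (SE 0.37) did not pass (adjusted p = 0.49, edgeR).

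Sqle encodes squalene epoxidase, which prepares squalene for ring closure. Its level was 45.3 and 19.6 CPM in CD34+ against 43.5 and 30.4 in CD34- cells. Both replicates numbered 1 were high, and the log2 fold change was -0.15 (SE 0.43, adjusted p = 0.878, edgeR).

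Cyp51 encodes the demethylase of lanosterol. It was measured at 147 and 53.6 CPM in CD34+ against 132 and 121 in CD34- cells. CD34+ replicate 2 stood below the other 3, which were close together. The CD34+ mean of 100.1 ± 65.8 CPM (SD, n = 2) had a spread larger than its distance to the CD34- mean of 126 ± 7.55 CPM (SD, n = 2). The log2 fold change was -0.31 (SE 0.47, adjusted p = 0.763, edgeR).

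Srebf2, the gene of SREBP-2, was highest in CD34+ replicate 1 and lowest in CD34+ replicate 2. It was at 67.6 and 33.6 CPM in CD34+ against 60.7 and 47.0 in CD34- cells. Its fractions overlapped, and edgeR put the log2 difference at -0.06 (SE 0.37, adjusted p = 0.95).

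Insig1 encodes the protein that retains SREBP in the endoplasmic reticulum, and it was the member whose groups did not overlap. Its level was 36.4 and 34.7 CPM in CD34+ against 52.1 and 51.8 in CD34- cells, or 35.6 ± 1.2 against 52.0 ± 0.23 CPM (SD, n = 2). The replicates of each fraction differed by far less than the fractions did. The log2 fold change of -0.53 (SE 0.23) had an unadjusted p = 0.0581 and did not pass (adjusted p = 0.318, edgeR). Groups did not overlap with CD34+ lower for 26.6% of all tested genes and with CD34+ higher for 23.4%, so 1 of 6 members is not above the background. The estimated fragments in FPM, where groups did not overlap for 27.2% of genes with CD34+ lower and 21.6% with CD34+ higher, gave the same order, at 21.1 and 20.9 against 30.2 and 26.6 (log2 fold change -0.37, SE 0.22, adjusted p = 0.473, edgeR). Without any 1 library the fold change of Insig1 stayed between -0.63 and -0.46.

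By CPM, the members with counts other than Insig1 differed more between the 2 CD34+ libraries than between the means of the fractions. CD34+ replicate 1 exceeded replicate 2 for all 6 members with counts, by 2.05-fold for Idi1, 2.31-fold for Sqle, 2.74-fold for Cyp51 and 2.01-fold for Srebf2, by 1.83-fold for Fdft1 and by 1.05-fold for Insig1. These 4 members at 2-fold or more by CPM compare with 8.99% of all tested genes. By RPKM and FPKM only Cyp51 reached 2-fold (2.11 and 2.03), and the ratio of Insig1 was 0.809 and 0.757. Hmgcs1 was 1.79-fold higher in CD34+ replicate 1 than in replicate 2 in FPM. By RPKM, Fdft1 as well as Insig1 differed more between the fractions than between the CD34+ libraries. For Fdft1 the CD34+ libraries differed by 1.41-fold, and the means were 6.60 in CD34+ and 13.3 in CD34- cells. By FPKM this held for Fdft1, Insig1, Srebf2 and Hmgcs1. CD34+ replicate 2 was the lowest of the 4 libraries for 6 of 6 members by CPM, and for 17.5% of all tested genes, though for Insig1 it was not the lowest by RPKM or FPKM. Among CD34- libraries, replicate 1 exceeded replicate 2 for the same 6 members, by 1.01-fold for Insig1 to 1.54-fold for Fdft1, with 0 members at 2-fold. Of all tested genes, 8.23% reached 2-fold in this direction in CD34- cells. Replicate 1 was above replicate 2 for 46.8% of all tested genes in CD34+ and for 61.9% in CD34- cells. Replicate 1 was above replicate 2 in both fractions for 33.1% of all tested genes. With 2 libraries in a fraction these differences have no test, and what set the libraries apart was not tested.

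**Figure D2:**
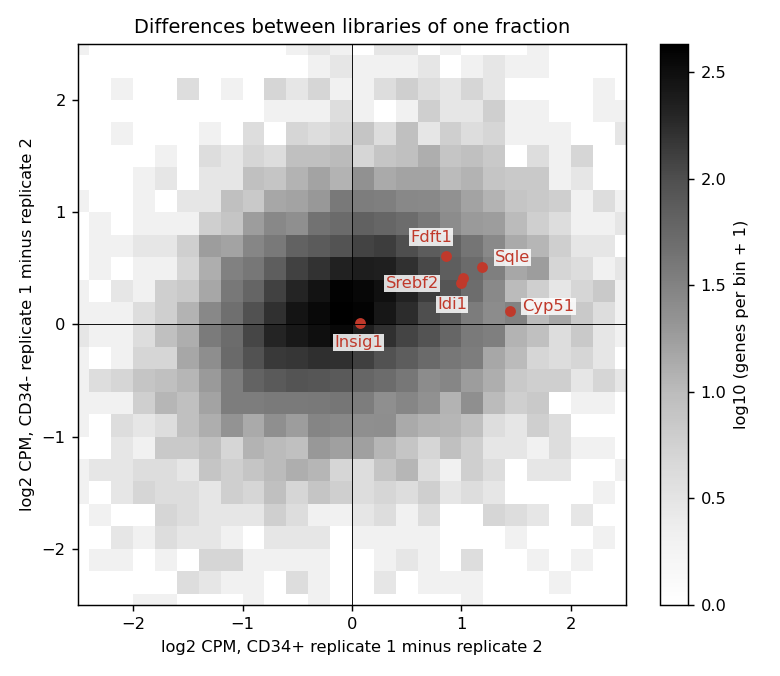
Difference in log2 CPM between replicate 1 and replicate 2 within CD34+ cells (horizontal axis) and within CD34- cells (vertical axis), with a pseudocount of 0.5, for all tested genes (grey, darker where more genes fall) and the 6 members with counts (red). Of the members, 5 lie to the right at 0.86 to 1.44, and Insig1 lies near the origin at 0.07.

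The direction of the members between fractions depended on which CD34+ library was kept. Without CD34+ replicate 2 the median log2 fold change of the members was 0.28 and 4 of 6 were positive, and without CD34+ replicate 1 it was -0.80 and 6 of 6 were negative (edgeR). Each of these fits had 1 CD34+ library, which was assumed to vary like the CD34- pair. No member passed in either case: the lowest adjusted p was 0.289, for Insig1 at -0.50 without CD34+ replicate 2, and 0.351, for Cyp51 at -1.25 without CD34+ replicate 1. Fdft1 and Insig1 were the 2 members whose sign held without each library in turn, at -1.08 to -0.18 for Fdft1.

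Levels of the members were compared with one another per length of gene. By the deposited RPKM, as mean ± SD over 4 libraries, the order was Cyp51 (19.1 ± 7.26), Insig1 (12.5 ± 4.61), Fdft1 (9.94 ± 4.45), Sqle (9.23 ± 3.17), Srebf2 (8.34 ± 2.28) and Idi1 (6.15 ± 1.68). By mean RPKM, Fdft1 stood at 13.3 in CD34- cells, above Sqle (11.2) and Srebf2 (9.87). In CD34+ cells it stood at 6.60 ± 1.59, below Sqle (7.22 ± 2.87) and Srebf2 (6.82 ± 2.08; SD, n = 2). These CD34+ means lay closer together than their SDs. By mean FPKM, Fdft1 was above Sqle and Srebf2 in both fractions. The FPKM means were 8.77 against 5.41 and 6.24 in CD34+ cells, and 14.3 against 8.73 and 10.3 in CD34- cells. Every pair of neighbours in the order over 4 libraries differed by less than the larger SD of the pair. By the deposited FPKM the order was Fdft1 (11.5 ± 3.51), Cyp51 (9.59 ± 3.36), Srebf2 (8.27 ± 2.65), Hmgcs1 (7.37 ± 2.43), Sqle (7.07 ± 2.59), Insig1 (7.05 ± 2.34) and Idi1 (3.06 ± 0.88). Idi1 was the lowest on both scales and stood apart from its neighbour by more than either SD on the FPKM scale, and Cyp51, first by RPKM, stood below Fdft1 by FPKM. On both scales more genes had lower than higher CD34+ libraries: groups did not overlap with CD34+ lower for 46.6% of all tested genes by RPKM and 46.6% by FPKM, and higher for 12.2% and 10.3%. The members counted 6 of 6 lower by RPKM and 6 of 7 lower by FPKM, all but Idi1. Tests of the fractions on these scales were run only as alternatives to the test of counts.

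The rest of the synthesis pathway gave a mixed picture. Of the 14 other enzymes listed, all were tested, 0 were called, 8 were positive and 6 negative, and the median log2 fold change was 0.10 (edgeR). That median was -0.24 without CD34+ replicate 1, 0.32 without CD34+ replicate 2 and 0.16 without CD34- replicate 1. On estimated fragments 6 of the 14 were positive and 8 negative, with a median of -0.06 (edgeR). The kinases that phosphorylate mevalonate had positive fold changes that did not pass. Pmvk was at 48.5 and 27.2 against 23.7 and 16.5 CPM (0.95, SE 0.36, adjusted p = 0.285, edgeR). Mvk was at 32.6 and 22.5 against 20 and 16 CPM (0.64, SE 0.30, adjusted p = 0.345, edgeR). In both genes the groups did not overlap. Across the 14 genes, groups did not overlap with CD34+ higher for 3 and with CD34+ lower for 3. The shares over all tested genes were 23.4% higher and 26.6% lower. Without CD34+ replicate 1 the fold changes were 0.44 for Pmvk and 0.32 for Mvk. Hsd17b7, a sterol ketoreductase of the late pathway, lay the other way at 17.2 and 18.3 against 28.4 and 22.3 CPM (-0.49, SE 0.26, adjusted p = 0.388, edgeR). Ebp, a sterol isomerase and the most abundant of the list by RPKM, was at 88.4 and 83.4 against 73.4 and 93.9 CPM, with overlap. Over the chain from acetoacetyl-CoA to cholesterol, 18 of 19 enzymes considered were tested. CD34+ replicate 1 was above replicate 2 for 15 of them, CD34- replicate 1 above replicate 2 for 14, and both for 13. The shares over all tested genes were 46.8%, 61.9% and 33.1%. CD34+ replicate 2 was the lowest library for 7 of the 18, and for 17.5% of all tested genes. The 18 include the members Idi1, Fdft1, Sqle and Cyp51. For the 14 other enzymes alone, CD34+ replicate 2 was the lowest library for 3 (21.4%). Replicate 1 was above replicate 2 for 11 of the 14 in CD34+ cells, 10 in CD34- cells and 9 in both.

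**Figure D3:**
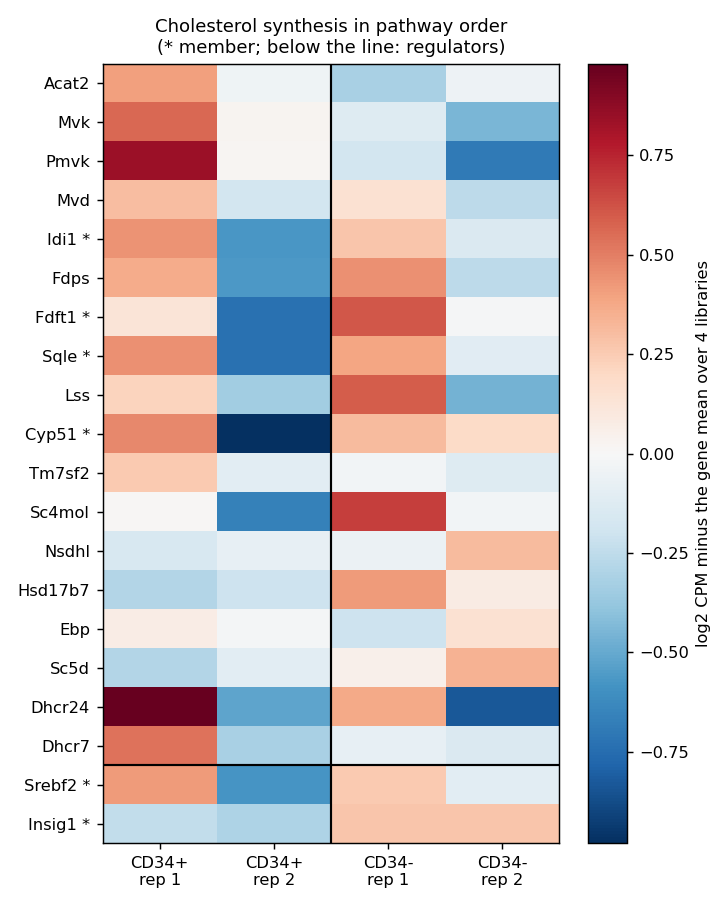
Log2 CPM of 18 enzymes of cholesterol synthesis in each library, minus the mean of that gene over 4 libraries, in pathway order from top to bottom, with Srebf2 and Insig1 under the line and members starred. CD34+ replicate 2 reads -0.98 for Cyp51 and -0.20 to -0.02 for Nsdhl, Hsd17b7, Ebp and Sc5d.

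Genes of sterol sensing and SREBP processing were tested for 7 of 7, with 0 called, 5 negative and 2 positive (median -0.39, edgeR). That median was -0.06 without CD34+ replicate 1 and -0.21 without CD34- replicate 2. Mbtps2, the intramembrane protease that frees SREBP, was at 7.36 and 13.4 against 18.5 and 17.2 CPM (-0.76, SE 0.36, adjusted p = 0.353, edgeR). Rnf139, a ubiquitin ligase of the sterol response, was at 23.2 and 40.4 against 46.1 and 46.4 CPM (-0.53, SE 0.31, adjusted p = 0.432, edgeR). Insig2, the relative of Insig1 with the same role, was at 37.8 and 46.2 against 59.3 and 52.0 CPM (-0.39, SE 0.23, adjusted p = 0.438, edgeR). Without CD34+ replicate 1 the fold change was -0.42 for Mbtps2 and -0.21 for Rnf139, and without CD34+ replicate 2 it was -1.26 and -0.99. Groups did not overlap for 4 of the 7 genes, these 3 with CD34+ lower and Srebf1, the gene of SREBP-1, with CD34+ higher at 101 and 96.3 against 89.6 and 64.1 CPM, beside 26.6% of all tested genes lower and 23.4% higher. Mbtps1, the protease of the first cut and the most abundant of the list by RPKM, was at 148 and 170.4 against 165 and 167 CPM.

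Genes of other uptake and lysosomal release were all 9 tested, with 0 called, 6 negative and 3 positive (median -0.44, edgeR). Npc2, the lysosomal carrier of freed cholesterol and the most abundant of the list by RPKM, was at 515 and 567 against 1175 and 921 CPM (-0.93, SE 0.30, adjusted p = 0.243, edgeR). Vldlr, a receptor for lipoproteins rich in triglyceride, was at 8.43 and 16.6 against 43.6 and 22.0 CPM (-1.35, SE 0.44, adjusted p = 0.245, edgeR). Stard3, a sterol transfer protein of late endosomes, was at 24.4 and 21.7 against 40.9 and 30.8 CPM (-0.61, SE 0.25, adjusted p = 0.307, edgeR). Groups did not overlap with CD34+ lower for 4 of the 9 genes, these 3 and Npc1, beside 26.6% of all tested genes, and with CD34+ higher for 1, Lrp1, a large endocytic receptor, at 2545 and 1738 against 1476 and 1277 CPM, beside 23.4%.

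Of the 9 genes of efflux, esterification and the sterol receptor LXR, 0 were called, 7 were positive and 2 negative (median 0.23, edgeR), and that median turned to -0.25 without CD34+ replicate 2. Soat1, the acyltransferase that stores cholesterol as ester, was at 63.3 and 50.5 against 172 and 140.2 CPM (-1.43, SE 0.26, unadjusted p = 0.00135, adjusted p = 0.171, edgeR). DESeq2 called it (adjusted p = 0.00217), as did the exact test of edgeR (adjusted p = 0.00245), edgeR without a filter (adjusted p = 0.0221) and limma on log2 RPKM + 1 (adjusted p = 0.0288). Over all alternatives its adjusted p ran up to 0.573. Cyp27a1, a sterol hydroxylase, was at 14.5 and 31.3 against 3.25 and 8.13 CPM (1.99, SE 0.59, adjusted p = 0.227, edgeR), and was called by DESeq2 (adjusted p = 0.0204) and by the exact test of edgeR (adjusted p = 0.0382); its highest adjusted p over the alternatives was 0.585. Ch25h, which makes an oxysterol that holds SREBP back, was at 33.9 and 17.9 against 65.7 and 54.3 CPM (-1.19, SE 0.36, adjusted p = 0.23, edgeR). Apoe, the lipoprotein gene and most abundant of the list by RPKM, was at 505 and 1272 against 717 and 472 CPM, with overlap. Macrophages also express Apoe and Cyp27a1. The summed level of 7 macrophage and leukocyte markers was 225 and 151 CPM in CD34+ and 138 and 87.4 CPM in CD34- libraries. All 7 were positive, where 51.3% of all tested genes were negative, and none was at 0. Within CD34+ cells the sum was higher in replicate 1, and Apoe and Cyp27a1 in replicate 2. Within CD34- cells the sum and Apoe were higher in replicate 1, and Cyp27a1 in replicate 2. The part of macrophages in these values was not tested.

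Fatty acid synthesis, which SREBP-1 governs more than SREBP-2, had 10 of 10 genes tested, 0 called, 8 negative and 2 positive (median -0.36, edgeR), with a median of -0.18 without CD34- replicate 2. Scd2, a stearoyl-CoA desaturase, was at 173 and 222 against 430.2 and 341 CPM (-0.94, SE 0.28, adjusted p = 0.227, edgeR). Its relative Scd1 was at 38.6 and 61.7 against 238 and 56.2 CPM, where CD34- replicate 1 alone was high. Fads1, another desaturase, was at 59.2 and 67.8 against 78.1 and 97.5 CPM. Acly, which makes the acetyl-CoA for both pathways, was at 266 and 270.0 against 293 and 446 CPM. Of the 6 genes on the prenyl branches of the mevalonate pathway 0 were called, with 3 positive and 3 negative (median -0.08, edgeR), and the median was -0.05 without CD34+ replicate 1, -0.23 without CD34+ replicate 2 and -0.22 without CD34- replicate 1. Ggps1, the geranylgeranyl diphosphate synthase, was at 12.6 and 13.2 against 17.3 and 18.2 CPM, and the prenyltransferase genes Fnta and Pggt1b were at 55.5 and 70.5 against 83.8 and 81.7 CPM and at 13.5 and 16.1 against 20 and 19.3 CPM.

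**Figure D4:**
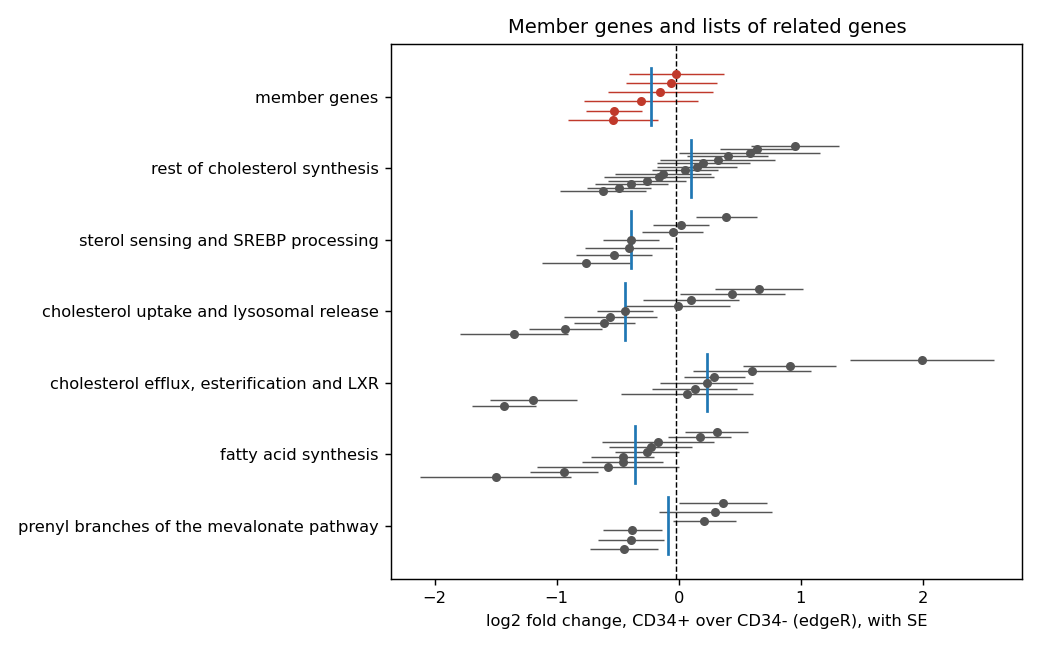
Log2 fold change, CD34+ over CD34-, with its standard error (edgeR) for the 6 tested members (red) and the tested genes of 6 lists (grey), with the median of each list in blue and the median of all tested genes, -0.02, as a dashed line. The members span -0.54 to -0.02, a narrower range than the -1.43 to 1.99 of the efflux list.

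Outside the lists, 5 of 6684 genes with a mean of at least 20 CPM lay nearest to the mean profile of the 6 members over the 4 libraries, by Euclidean distance in centred log2 CPM. Of these, 4 are reported here: Fmnl3 (distance 0.07), Snx8 (0.10), Plaur (0.16) and Spryd3 (0.18). Fmnl3, an actin regulator, was at 61.8 and 33.7 CPM in CD34+ and 65.7 and 50.2 CPM in CD34- libraries. Among the members Srebf2 lay nearest to the mean profile (0.21) and Insig1 farthest (0.67). With 4 libraries the distances are a description only.

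The labelled cells were checked by their markers. All 9 fibroblast markers had counts in every library, summing to 36532 to 40232 CPM, and Cd34 was at 143 and 293 CPM in CD34+ against 18.3 and 23.9 in CD34- cells. Fap was at 79.0 and 39.8 CPM in CD34+ and 142 and 136 CPM in CD34- libraries. Epithelial markers summed to 845 and 541 CPM in CD34+ and 796 and 404 CPM in CD34- libraries; all 7 had counts in every library, 5 were positive and 2 negative. Mesothelial markers summed to 265 and 151 against 138 and 103 CPM, with 4 of 6 positive, and endothelial markers to 59.1 and 54.2 against 35.8 and 40.9 CPM, with 5 of 7 positive. Pericyte markers summed to 393 and 315 against 489 and 565 CPM, with 5 of 8 negative. Adipocyte markers summed to 64.6 and 32.5 against 50.8 and 13.5 CPM and acinar markers to 17.2 and 25.2 against 19.9 and 9.23 CPM, with Amy2a5 at a count of 0 in all libraries. The epithelial, mesothelial and adipocyte sums, and that of the macrophage and leukocyte markers above, were higher in replicate 1 than in replicate 2 of both fractions. By CPM the 6 members with counts and 33.1% of all tested genes had this order too. The fibroblast, pericyte, endothelial and acinar sums were each higher in replicate 1 in only 1 of the fractions. Single markers did not all follow, with Epcam at 10.1 and 18.6 CPM in CD34- replicates 1 and 2. Lyz2, a macrophage and leukocyte marker, was at 70.9 and 76.1 CPM in CD34+ and 37.9 and 41.8 CPM in CD34- libraries. The part of these cell types in the levels of the members was not tested.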

How the data were processed

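Per the labels' protocols, RNA of the 4 sorted cell samples came from a Purelink extraction and was amplified by MessageAmp before sequencing. Bowtie2, TopHat2, HTSeq, edgeR and the build mm9 appear in the submitters' processing notes without versions; neither annotation nor strand setting is stated there, so reads of overlapping genes cannot be told apart. Raw read counts, RPKM, bias-adjusted FPKM and the estimated counts of fragments behind the FPKM were deposited by the authors. The deposited RPKM were scaled by totals other than these count sums: relative to CD34- replicate 2, count sum over scaling total stood at 65.0% and 84.3% for the CD34+ pair and 94.8% for the remaining CD34- library. The count table holds 14 further columns that match no sample here and were not used. 

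CPM are counts over the library total. Counts were tested with edgeR 4.0.16 (R 4.3.3; TMM, filterByExpr, group as the only term, 2 residual degrees of freedom, with 4.17 added by moderation); the SE is the fold change over the square root of F. Tests are two-sided. An exact permutation test of 2 against 2 libraries cannot go below p = 0.333 and was not run. Estimated fragments were rounded and tested alike, an alternative added after the data were seen. Other alternatives used DESeq2 1.42.0, limma 3.58.1, other scalings and filters, a replicate block and each library left out. Scripts were tested on simulated data.

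The members and lists were chosen with earlier results of these data known. Of the members 1, and a few genes of the lists, are not reported here and enter no count or median of members or lists; this was decided after the tests and not by their values, and the fits across all genes are unchanged. Named in each list were the 3 genes of smallest p from 5 CPM and the most abundant by RPKM, and outside the lists the 5 nearest to the members' profile. Srebf1, Npc1, Lrp1, Epcam and Lyz2 were named after their values were seen. With 1 library of a fraction left out, the lone library was assumed to vary like the other pair. A count of 0 could hide up to 3 counts, or 0.205 to 0.291 CPM, covering counting error only.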

Additional observations from a re-analysis of the deposited data

How the results depend on the processing

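No member was called under any of the 18 alternatives (108 values for 6 members); 12 of these values changed sign. The median of the members, -0.23, ranged from -0.80 to 0.28 on leaving out each library. By limma it was -0.73, -0.79 and -0.66 on log2 RPKM + 1, log2 RPKM + 0.1 and log2 FPKM + 1, and -0.73 on log2 RPKM + 1 without a filter. The median of all genes in the same limma fits was -0.41, -0.49, -0.42 and -0.04. The median of the members thus lay -0.32, -0.29, -0.25 and -0.69 from that of all genes, against -0.21 in the main fit. Without a filter on counts the median of all genes shifted to 0.17. Idi1 turned to 0.01 with DESeq2 and with RLE scaling, 0.05 with upper quartile scaling and 0.23 on estimated fragments, and Srebf2 to 0.01 with upper quartile scaling. Leaving out each library gave -0.66 to 0.40 for Idi1, -0.91 to 0.32 for Sqle, -1.25 to 0.23 for Cyp51, -0.68 to 0.35 for Srebf2, -0.21 to 0.32 for Ebp, -0.16 to 0.03 for Mbtps1 and -0.21 to 1.10 for Apoe. Ebp also turned to -0.04 without a filter, -0.34 on log2 RPKM + 1 with and without a filter, -0.35 on log2 RPKM + 0.1 and -0.41 on log2 FPKM + 1, Mbtps1 to 0.04 with upper quartile scaling, and Mvk and Apoe to -0.08 and -0.22 on log2 FPKM + 1. Of the 6 lists, DESeq2 and edgeR's exact test each called 2 genes, Soat1 and Cyp27a1, and 1 gene, Soat1, was called without a filter (edgeR) and by limma at either RPKM pseudocount. Of all genes, 396 were called higher and 180 lower by DESeq2, 470 and 206 by the exact test, 194 and 137 without a filter, 37 and 103 on log2 RPKM + 1, 29 and 87 on log2 RPKM + 0.1, then 11 and 9 for log2 FPKM + 1, against 0 and 0 by edgeR's quasi-likelihood test; library size scaling, upper quartile scaling and a filter of 1 CPM in 2 libraries each called 2 higher. With the replicate number as a block 39 genes were called higher and 23 lower, none of them a member. Differences between replicates correlated at 0.24 between fractions across genes, but no label says that a number marks shared animals. The cause of these changes was not tested.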

Other observations

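Hmgcs1 was not alone in being listed at a count of 0. Of the 22558 genes in both of the authors' quantifications, 1562 had a count of 0 in all 4 libraries, and 55 of these, Hmgcs1 among them, had more than 1 FPKM in every library, 35 of them more than 5 FPKM.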
